A study of Mus musculus with 2 samples.

Results

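The genes described here are 9 genes that glial cell line-derived neurotrophic factor (GDNF) is known to induce in spermatogonial stem cells (SSCs), or that are counted with its self-renewal programme: Bcl6b, Lhx1, Pou3f1, Cxcr4, Egr2, Egr3, Tspan8, T and Eomes. They were chosen by name, with earlier results of these data known. All were found once in both libraries, and they are 9 of the 32285 genes counted. The libraries come from THY-1+ germ cell cultures, which the study started by sorting testis cells of C57 LacZ mouse pups with an antibody to the surface protein THY-1. Such cultures are enriched for SSCs and need a layer of feeder cells, here the fibroblast line STO. FGF9-treated cells received 20 ng/ml FGF9 for 48 h (1 library), and Control cells received 0 ng/ml FGF for 48 h (1 library). The passage label gives 9 to 12 for both, although the source name of the FGF9-treated library gives a range that ends 1 passage later. Both had been maintained with GDNF at 20 ng/ml, its soluble co-receptor GFRA1 at 150 ng/ml and FGF2 at 1 ng/ml. According to the study both cultures were changed at the start of treatment to medium with FGF9 or with albumin, and Control cells are described there as having no growth factors during treatment. Each library pooled cells derived from several mice, and no library with and without GDNF was part of the comparison, so that induction by GDNF is background for these genes and was not measured.

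GDNF binds its co-receptor GFRA1, and the complex activates the receptor tyrosine kinase RET, which signals through SRC family kinases, PI3K-AKT and RAS-ERK. In SSCs this signal maintains self-renewal and raises a set of transcription factor genes, among them Bcl6b, Etv5, Lhx1, Pou3f1 and Egr family members. FGF receptors are also tyrosine kinases and act through RAS-ERK, so both growth factors can reach the same genes. The question of the comparison is whether FGF9-treated cells hold more transcript of these genes, and whether any difference lies in the cells with receptor transcripts or in all cells.

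The positions of the genes in mm10 (GENCODE) are chr11:70224128-70229798 for Bcl6b, chr11:84518284-84525535 for Lhx1, chr4:124656807-124660655 for Pou3f1, chr1:128588199-128592293 for Cxcr4, chr10:67535475-67542188 for Egr2, chr14:70077203-70082614 for Egr3, chr10:115816832-115849893 for Tspan8, chr17:8434423-8442496 for T and chr9:118478212-118486132 for Eomes. All 9 are protein-coding. Bcl6b, Lhx1 and Cxcr4 lie on the minus strand and the other genes on the plus strand. Pou3f1, Tspan8 and Eomes each overlap an annotated antisense gene on the opposite strand, whereas no gene overlaps any of the 9 on its own strand; whether the counting used strand is not given in the sources used here.

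The promoter of Egr2 is shown because Egr2 is a member whose transcription is known to answer growth factors within minutes through serum response factor, which binds CArG boxes. The sequence is from RefSeq (GRCm38.p6, chr10:67537619-67537918, plus strand), from 250 bases before to 50 bases after the start, and the capitals mark its CArG box (CC, 6 bases of A or T, GG), which lies 72 bases before the start.
Egr2 promoter: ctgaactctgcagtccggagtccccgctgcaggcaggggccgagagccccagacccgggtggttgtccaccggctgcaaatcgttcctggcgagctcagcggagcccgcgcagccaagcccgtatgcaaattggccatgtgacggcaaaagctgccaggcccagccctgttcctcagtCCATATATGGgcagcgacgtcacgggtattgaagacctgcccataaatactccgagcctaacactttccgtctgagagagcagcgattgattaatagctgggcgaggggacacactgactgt
Of 32851 mouse promoters of this length, 535 (1.63%) held a CArG box on either strand. Promoters of 6 of the 9 genes were matched in this table (Lhx1, Cxcr4, Egr2, Tspan8, T and Eomes). Only the CArG box of Egr2 was found in them among 4 motifs searched on both strands, the others being the ETS motif CCGGAAG (in 8.86% of all promoters), the AP-1 motif TGANTCA (7.81%) and the cyclic AMP response element TGACGTCA (1.79%). A match describes the letters of this window and is not evidence of binding.

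The PCR primers that the study designed for Bcl6b and Lhx1 are shown because they mark another region of the transcript than the one counted here.
Bcl6b forward primer: tacttcaaggcttcgcctctct
Bcl6b reverse primer: ctacgtgttccatctgcaaatagg
Lhx1 forward primer: cccagctttcccgaatcct
Lhx1 reverse primer: gcgggacgtaaataaataaaatgg
Each pair matched a single GENCODE transcript of its gene exactly, Bcl6b-201 and Lhx1-201, and no other transcript held both primers. The study also listed primers for T, whose reverse primer was not found in the GENCODE transcripts of T. The 80-base product of Bcl6b lies in the coding sequence, 2954 bases from the 3′ end of the transcript, and the 74-base product of Lhx1 lies in the 5′ UTR, 2792 bases from the 3′ end. The droplet libraries were made with a 3′ kit and count each molecule from its 3′ end.

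Gene expression was counted as unique molecular identifiers (UMIs) per gene and cell barcode. Germ cells were taken as barcodes with at least 2000 genes, at most 20% mitochondrial UMIs and fewer than 40 UMIs of the fibroblast genes Vim and S100a6 together, which left 4537 of 5959 barcodes in the FGF9-treated library and 4157 of 5312 in the Control library. Their median depth was 13067 UMIs in FGF9-treated and 14824 UMIs in Control cells, and their summed depth 67068085 and 67689739 UMIs. The libraries shared 11 barcode sequences, of which 10 were germ cells in both. All 6 germ cell markers, such as Dazl and Ddx4, were abundant, with a summed level of 3342 CPM (UMIs of a gene per 1000000 UMIs of the cells) in FGF9-treated and 4004 CPM in Control germ cells, whereas 8 fibroblast markers stood at 231 and 166 CPM in the germ cells against 19349 and 14275 CPM in the barcodes kept as feeder cells (63 and 31). Of the germ cell markers Uchl1 differed most, at 648 CPM in FGF9-treated and 1345 CPM in Control germ cells, whereas Dazl stood at 1823 and 1729 CPM. Of 4 Leydig cell markers 3 were at 0, and of 4 macrophage markers 2. The summed Leydig level was 5.05 CPM in FGF9-treated and 4.05 CPM in Control germ cells, all from Star, and the macrophage level 1.58 and 0.872 CPM. None of the 4 Sertoli cell markers (9.95 and 7.21 CPM) or the 3 endothelial markers (4.99 and 2.79 CPM) was at 0 in both libraries. With 1 library per treatment there is no test between treatments. Every range below is a 95% interval of counting error only, no p-value is given, and "higher" and "lower" describe these libraries. A gene was called higher when its log2 ratio was at least 1 with an interval above 0, among genes with at least 20 UMIs in the 2 sums.

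Over all germ cells, Bcl6b, Lhx1, Cxcr4, Egr2, Egr3 and Tspan8 were higher in FGF9-treated cells, by 2.90-fold to 7.87-fold. These are 6 of the 8 genes that could be tested, against 4.66% of all 17240 genes tested (and 6.74% of the 10942 genes with 20 to 3000 UMIs). None of the 8 was called lower, against 4.27% of all genes. Eomes had a smaller ratio, Pou3f1 was nearly level, and T was too low to measure. The median log2 ratio of the 8 genes was 1.64, beside -0.03 for all genes tested, and all 8 intervals lay above 0, against 26.6% of all genes. Because the genes were chosen with earlier results of these data known, these shares describe the group and are no test of it.

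**Figure D1:**
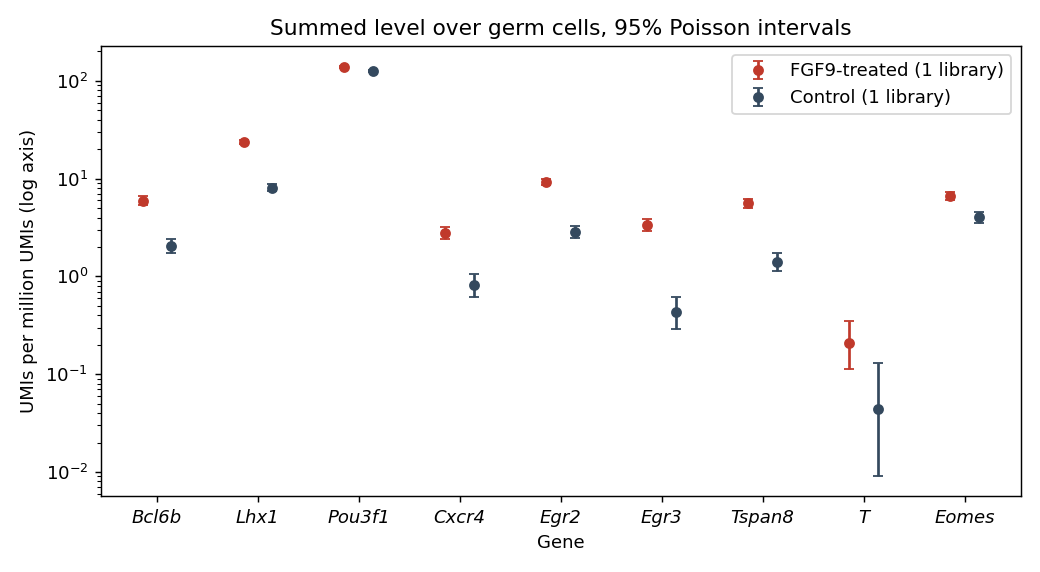
Level of each of the 9 genes summed over germ cells, in CPM on a log axis, in the FGF9-treated library (4537 cells) and the Control library (4157 cells), with exact Poisson 95% intervals. The intervals of the libraries are apart for all genes but T, and Pou3f1 lies at 138 and 125 CPM.

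Among the transcription factors of SSC self-renewal, Bcl6b encodes a zinc finger repressor needed for SSC maintenance. It had 400 UMIs (5.96 CPM) in FGF9-treated cells and 139 UMIs (2.05 CPM) in Control cells, a log2 ratio of 1.54 (1.26 to 1.83). Lhx1, a LIM homeobox factor, had 1606 UMIs (23.9 CPM) in FGF9-treated cells and 549 UMIs (8.11 CPM) in Control cells, a ratio of 1.56 (1.42 to 1.70). The intervals of these ratios overlap almost wholly. Pou3f1 (Oct6), a POU factor, was far better counted, with 9248 UMIs (138 CPM) in FGF9-treated and 8481 UMIs (125 CPM) in Control cells. Its ratio of 0.14 (0.10 to 0.18) is a 1.10-fold difference, and it fell to 0.07 (-0.01 to 0.14) when each cell was thinned to 5000 UMIs. Pou3f1 was thus the member with the most counts and the smallest difference.

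Of the surface proteins, Cxcr4 is the chemokine receptor for CXCL12, which helps SSCs home to and stay in the niche. It had 186 UMIs (2.77 CPM) in FGF9-treated cells and 55 UMIs (0.813 CPM) in Control cells, a ratio of 1.77 (1.33 to 2.23). Tspan8, a tetraspanin that marks a subset of spermatogonia rich in stem cells, had 377 UMIs (5.62 CPM) in FGF9-treated cells and 96 UMIs (1.42 CPM) in Control cells, a ratio of 1.99 (1.66 to 2.33). Both were called higher, although Cxcr4 was found in no more than 180 FGF9-treated and 53 Control cells.

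The early growth response factors Egr2 and Egr3 are zinc finger activators that are induced within minutes by many growth factors. Egr2 had 622 UMIs (9.27 CPM) in FGF9-treated cells and 192 UMIs (2.84 CPM) in Control cells, a ratio of 1.71 (1.47 to 1.95). Egr3 had 226 UMIs (3.37 CPM) in FGF9-treated cells and 29 UMIs (0.428 CPM) in Control cells, a ratio of 2.98 (2.41 to 3.59). Egr3 had the highest ratio of the 8 genes, and its interval lay above those of the other 7. The other family members did not share it: Egr1 had a ratio of 0.43 (0.38 to 0.49), and Egr4, at 183 CPM in FGF9-treated and 219 CPM in Control cells, -0.26 (-0.29 to -0.22).

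T (brachyury) and Eomes are T-box factors, best known from the early mesoderm of the embryo, and both have been placed in undifferentiated spermatogonia of the mouse. T had 14 UMIs in 14 FGF9-treated cells and 3 UMIs in 3 Control cells. Its 17 UMIs are under the minimum of 20, and the interval of its ratio (2.24, 0.39 to 4.68) leaves the size of the difference undetermined. Eomes had 447 UMIs (6.66 CPM) in FGF9-treated cells and 272 UMIs (4.02 CPM) in Control cells, a ratio of 0.73 (0.51 to 0.95), below the threshold of 1.

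The transcripts were sparse in single cells. Lhx1 was found in 1110 of 4537 FGF9-treated cells (24.5%, exact binomial 95% interval 23.2 to 25.7) and in 467 of 4157 Control cells (11.2%, 10.3 to 12.2). After each cell was thinned to 5000 UMIs, which left out 22 FGF9-treated and 16 Control cells, Lhx1 was found in 10.2% of FGF9-treated and 3.72% of Control cells. The corresponding shares of thinned cells were 3.10% and 1.01% for Bcl6b, 4.08% and 1.57% for Egr2, 2.28% and 0.507% for Tspan8, 1.37% and 0.169% for Egr3, 1.13% and 0.362% for Cxcr4, 3.28% and 1.96% for Eomes, and 46.6% and 45.0% for Pou3f1. The sums did not rest on a few cells. The cell with most UMIs held 6 of the 400 UMIs of Bcl6b and 9 of the 1606 UMIs of Lhx1 in the FGF9-treated library, and 317 of the 351 FGF9-treated cells with Bcl6b had a single UMI of it. A cell without a UMI of these genes is therefore not a cell shown to lack the transcript.

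Feeder cells were taken as background, at a median depth of 26481 UMIs in the FGF9-treated and 20517 UMIs in the Control library. The 6 germ cell markers stood at 202 CPM in feeder cells of the FGF9-treated library and 753 CPM in those of the Control library. Germ cell RNA in feeder barcodes was thus not equal in the libraries. Cxcr4 and Eomes were found in 0 of 63 feeder cells of the FGF9-treated library, which by the limit of 3 counts allows a share of cells with a UMI of up to 4.76%, and in 0 of 31 of the Control library, which allows up to 9.68%. Bcl6b was at 0 in the 63 and had 1 UMI in the 31 feeder cells. After thinning, Lhx1 was found in 10.2% of germ cells and 3.17% of feeder cells of the FGF9-treated library, and in 3.72% of germ cells and 3.23% of feeder cells of the Control library. These feeder shares are 2 of 63 cells (0.387 to 11.0%) and 1 of 31 cells (0.0816 to 16.7%), which leaves the background of Lhx1 loosely fixed.

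For the Egr genes the feeder shares of thinned cells were not lower than the germ cell shares in the Control library (1.57% for Egr2, 0.169% for Egr3). In the FGF9-treated library they were lower than in germ cells (4.08% and 1.37%), on few feeder cells. Thinned, Egr2 was found in 1.59% of feeder cells of the FGF9-treated library and 6.45% (2 of 31) of the Control library, and Egr3 in 0 of 63 and 3.23% (1 of 31). The feeder shares of the Control library rest on 2, 1 and 1 cells for Egr2, Egr3 and T. Immediate early genes as a list were also higher in feeder cells than in germ cells. Whether the Egr UMIs of feeder cells were free RNA or transcript of the feeder cells was not tested. As sequenced, Egr3 was found in 4.25% of germ cells of the FGF9-treated library, against 8 of its 63 feeder cells (12.7%), which held 14 UMIs, of which 6 were in 1 cell. Its level was 3.37 CPM in these germ cells and 7.51 CPM (4.11 to 12.6) in these feeder cells, while Vim stood at 18.5 CPM in the germ cells and 4730 CPM in the feeder cells. Between the libraries, Vim was higher in FGF9-treated germ cells (18.5 CPM) than in Control germ cells (3.65 CPM), a log2 ratio of 2.35. With S100a6 (1.06) and Col3a1 (1.16) 3 of the 8 fibroblast markers were called higher (against 4.66% of all genes) and 0 lower, with a median of 0.51. Col1a1 went the other way, short of the threshold, at -0.86 (-0.98 to -0.74) from 823 FGF9-treated and 1508 Control UMIs. Leaving out germ cells with 20 or more UMIs of Vim and S100a6 removed 1 cell of each library and changed no call. The part of free RNA in these shares was not tested.

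The receptor transcripts divided the germ cells. Both Ret and Gfra1 were found in 1687 FGF9-treated cells (37.2%) and 415 Control cells (9.98%), and neither in 830 FGF9-treated cells (18.3%) and 2305 Control cells (55.4%). Ret alone was found in 1491 FGF9-treated and 1036 Control cells, and Gfra1 alone in 529 and 401. These classes are in large part a matter of depth: if every cell of a library held the library's own average level, 601 FGF9-treated and 1896 Control cells would have neither transcript, and 1934 and 438 would have both. "Neither" therefore means not found, not absent. Ret (104 CPM in FGF9-treated and 34.9 CPM in Control cells) and Gfra1 (58.6 and 16.5 CPM) also differed in level. A class therefore need not hold the same kind of cells in both libraries. Cells with both were also deeper than cells with neither, with a median of 14428 against 11794.5 UMIs in the FGF9-treated and 15948 against 14521 UMIs in the Control library. As background, Gfra1 had a UMI in 48.8% of germ cells and 13 of 63 feeder cells of the FGF9-treated library, and in 19.6% of germ cells and 19.4% (6 of 31) of feeder cells of the Control library, while Ret had a UMI in 6 and 2 feeder cells. The part of free Gfra1 RNA in the Control classes was not tested.

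In cells with neither receptor transcript, 6 of the 8 tested genes were higher in FGF9-treated cells (against 3.44% of 14866 genes), and these were the same 6 as over all germ cells. Lhx1 had 228 UMIs (22.0 CPM) in FGF9-treated and 251 UMIs (7.12 CPM) in Control cells of this class, a log2 ratio of 1.62 (1.36 to 1.89). Bcl6b had 63 UMIs (6.07 CPM) in FGF9-treated and 68 UMIs (1.93 CPM) in Control cells, a ratio of 1.65 (1.13 to 2.17). The ratios of Cxcr4, Egr2, Egr3 and Tspan8 in this class were 1.76, 1.88, 2.84 and 3.01, the last from 50 FGF9-treated and 21 Control UMIs. All 6 ratios in cells without a receptor UMI were at least as large as 1.62.

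In cells with Ret and Gfra1, 5 of the 8 were higher in FGF9-treated cells (against 2.73% of 14651 genes): Bcl6b (1.51, 0.81 to 2.29), Lhx1 (1.32, 0.99 to 1.66), Cxcr4 (1.55, 0.44 to 2.92), Egr3 (2.61, 1.44 to 4.08) and Tspan8 (1.28, 0.64 to 1.99). Egr2 had a ratio of 0.72 (0.27 to 1.19) there, with 281 UMIs (9.81 CPM) in FGF9-treated and 48 UMIs (5.97 CPM) in Control cells, and was not called. The Control counts behind these ratios were low, at 18 UMIs of Bcl6b, 7 of Cxcr4 and 6 of Egr3.

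The calls in receptor-positive cells depended on how such cells were taken. When at least 2 UMIs of Ret and of Gfra1 were asked for, 547 FGF9-treated and 81 Control cells remained and 0 of 8 genes were called. Lhx1 then stood at 27.0 CPM in FGF9-treated and 16.0 CPM in Control cells (1.8% of all genes were called), a ratio of 0.76 (0.19 to 1.39), and Bcl6b had 1.19 (-0.10 to 2.85) from 73 and 5 UMIs. The ratios of Egr3 (1.02, -0.42 to 2.95), Cxcr4 (1.64, -1.002 to 7.02) and Tspan8 (1.002, -0.19 to 2.49) were past the threshold with intervals that held 0. They rested on 4, 1 and 6 Control UMIs. When the receptors were sought among 5000 UMIs drawn from each cell, 492 FGF9-treated and 98 Control cells had both, again with 0 genes called (of 7 tested, against 1.69% of all genes). The ratios were 1.51 (-0.15 to 3.84) for Bcl6b, 1.89 (-0.78 to 7.28) for Cxcr4 and 1.33 (-0.69 to 4.46) for Egr3, on 3, 1 and 2 Control UMIs, so that these calls were lost through wide intervals, while Lhx1 (0.69) and Tspan8 (0.51) were below the threshold. Egr2 then had 12.2 CPM in FGF9-treated and 12.8 CPM in Control cells, a ratio of -0.07 (-0.80 to 0.73). In cells with neither transcript all 6 calls were also made with the drawn UMIs (of 8 tested, against 4.45% of all genes). The minimum of 2 UMIs leaves that class as it was. Among cells of 8000 to 20000 UMIs, which narrows the difference in depth, 5 of 8 genes were called higher in cells with both (against 2.09% of all genes) and 5 of 7 in cells with neither (against 3.32%).

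**Figure D2:**
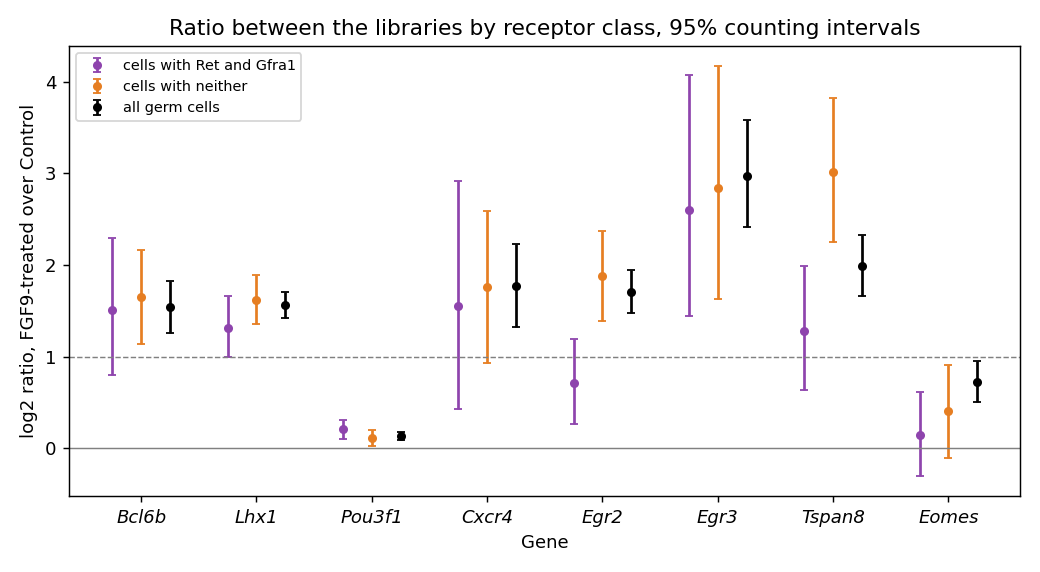
Log2 ratio of FGF9-treated over Control for 8 of the genes (T was too low) in cells with Ret and Gfra1, in cells with neither and in all germ cells, with 95% counting intervals; the dashed line marks the threshold of 1. The points of Bcl6b, Lhx1, Cxcr4 and Egr3 lie close together over the classes, while those of Egr2 (0.72 and 1.88) and Tspan8 (1.28 and 3.01) are lower in cells with both receptors than in cells with neither.

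The ratios of the 2 classes were compared directly. For Egr2 the ratio in cells with both receptors was smaller by 1.16 on the log2 scale than in cells where neither was found (difference -1.16, interval -1.81 to -0.52). For Tspan8 it was smaller by 1.74 (-1.74, -2.71 to -0.76). For the other 6 genes the interval of the difference held 0, as in Lhx1 (-0.30, -0.72 to 0.11) and Cxcr4 (-0.21, -1.57 to 1.15), and these intervals are too wide to show equal ratios. In no gene was the ratio between the libraries larger in the receptor-positive cells beyond counting error.

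Within the FGF9-treated library, Egr3 alone was called higher in cells with both receptors than in cells with neither (1 of 8, against 1.32% of 14639 genes). It had 130 UMIs (4.54 CPM) in cells with both and 19 UMIs (1.83 CPM) in cells with neither, a ratio of 1.31 (0.61 to 2.09), which was lost when the receptors were sought among 5000 drawn UMIs (0.32, -0.41 to 1.00). Bcl6b stood at 6.36 CPM in cells with both and 6.07 CPM in cells with neither (0.07, -0.35 to 0.50), and Cxcr4 at 2.55 and 2.60 CPM (-0.03, -0.68 to 0.67). Lhx1, at 26.4 and 22.0 CPM, had a ratio of 0.26 (0.05 to 0.48), and Egr2, Tspan8 and Eomes had 0.42, 0.46 and 0.66, with intervals above 0 and estimates below the threshold. Under FGF9 the differences were thus smaller than the threshold for all but Egr3. The median log2 ratio of the 8 genes in this contrast was 0.34, beside 0.05 for all genes tested.

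Within the Control library the contrast was steeper for a pair of genes. Egr2 had 48 UMIs (5.97 CPM) in cells with both receptors and 70 UMIs (1.99 CPM) in cells with neither, a ratio of 1.59 (1.03 to 2.14), and Tspan8 had 22 UMIs (2.73 CPM) and 21 UMIs (0.596 CPM), a ratio of 2.20 (1.27 to 3.13). They are 2 of 7 tested (against 2.92% of 14782 genes), since Egr3 had 15 UMIs in the 2 classes and was not tested. Eomes (0.92, 0.43 to 1.41) and Lhx1 (0.57, 0.20 to 0.93) were higher below the threshold, Bcl6b had 0.21 (-0.62 to 0.98), and Pou3f1 was slightly lower in cells with both (-0.16, -0.27 to -0.06). With the stricter choice of at least 2 UMIs of each receptor, which left 81 Control cells with both, Lhx1 (1.16, 0.53 to 1.74) and Eomes (1.64, 0.84 to 2.37) were also called. This made 4 of 7 tested, against 3.67% of all genes. Egr2 and Tspan8 were thus unequal among the germ cells of the Control library, with the receptor transcripts.

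**Figure D3:**
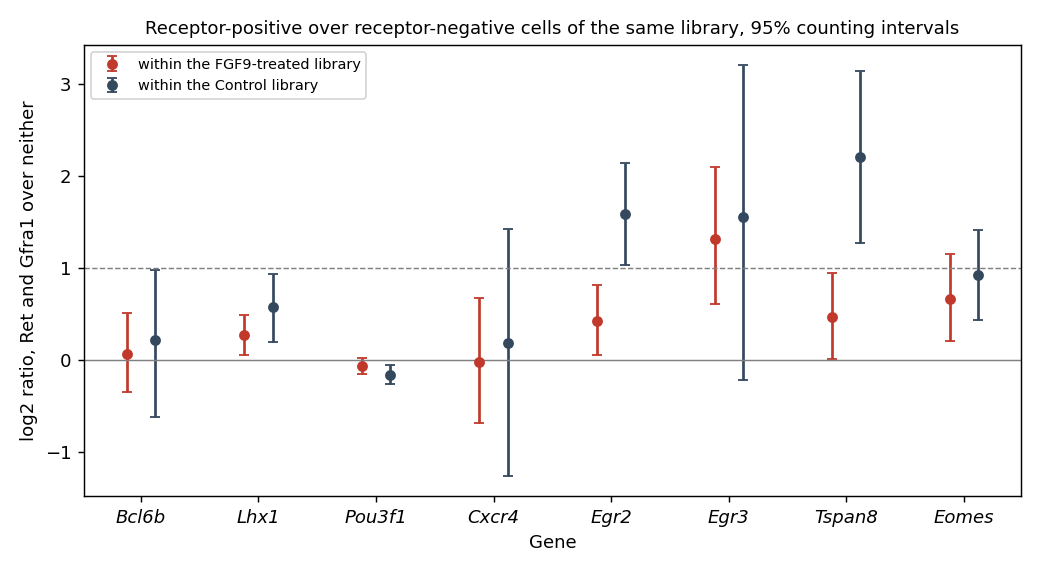
Log2 ratio of cells with Ret and Gfra1 over cells with neither, within the FGF9-treated library (1687 over 830 cells) and within the Control library (415 over 2305 cells), with 95% counting intervals. The Control points of Egr2 (1.59) and Tspan8 (2.20) lie above the dashed threshold of 1 and the FGF9-treated points below it (0.42 and 0.46), while Bcl6b and Cxcr4 lie near 0 in both.

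How far the larger share of receptor-positive cells could account for the ratios was worked out as arithmetic. The Control level of each gene in each of the 4 receptor classes was kept and the classes were given the shares of UMIs they held in the FGF9-treated library. Shares alone would give a log2 ratio of 0.07 of the 1.54 observed for Bcl6b (4.50%), 0.04 of 1.77 for Cxcr4 (2.05%) and 0.19 of 1.56 for Lhx1 (12.1%). For Egr3 the part was 16.4%, for Tspan8 30.6% (0.61 of 1.99), for Egr2 31.2% (0.53 of 1.71) and for Eomes 42.5% (0.31 of 0.73). Most of each ratio above the threshold thus lay within the classes. The classes are blurred by depth, as given above, so these parts hold for cells as found and not for cells as they are.

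**Figure D4:**
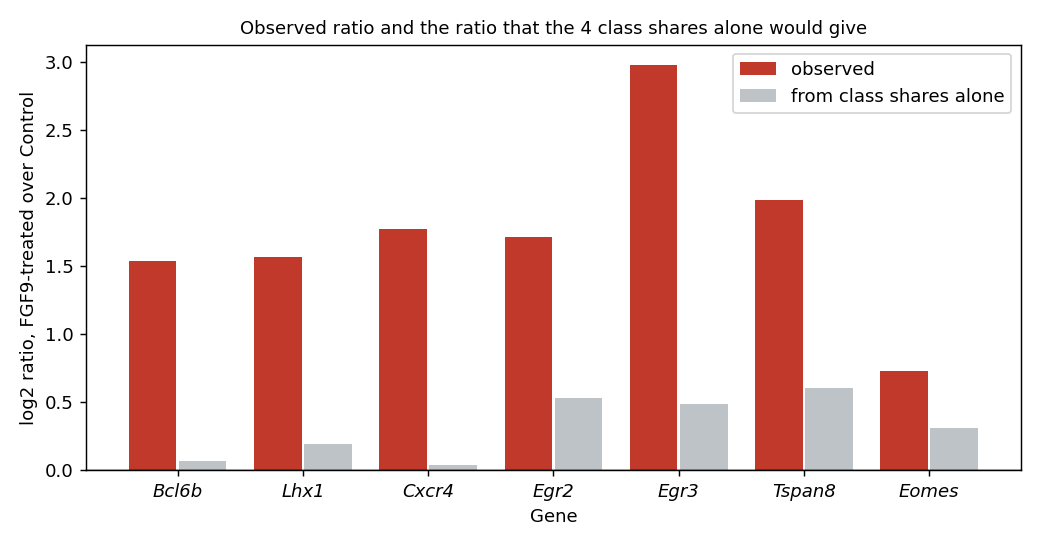
Observed log2 ratio of FGF9-treated over Control, and the ratio that the changed shares of the 4 receptor classes alone would give with Control levels kept, for 7 genes (Pou3f1, with a ratio of 0.14, and T are left out). The bars from shares alone reach 0.61 for Tspan8 and 0.53 for Egr2, and 0.07 for Bcl6b.

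Other transcripts placed the members among the cells of the cultures. Etv5, an ETS factor of SSC self-renewal, was found in 32.3% of FGF9-treated and 2.72% of Control cells. In cells with no Etv5 UMI the same 6 genes were higher in FGF9-treated cells (against 4.1% of 16761 genes), Bcl6b by 1.36 (1.04 to 1.67) and Lhx1 by 1.45 (1.29 to 1.60). Within the FGF9-treated library, cells with Etv5 had more Egr3 (0.75), Egr2 (0.53), Tspan8 (0.51), Eomes (0.50), Bcl6b (0.42) and Lhx1 (0.33) than cells without, all with intervals above 0 and estimates below the threshold. In the Control library Egr2 (1.82, 1.06 to 2.51) and Tspan8 (1.90, 0.79 to 2.85) were called higher in the 113 cells with Etv5, on 19 and 10 UMIs there (against 1.64% of 15748 genes). The genes that followed the receptors in Control cells were thus also those that followed Etv5.

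Dusp6, an ERK phosphatase gene that rises with ERK activity, was found in 46.4% of FGF9-treated and 7.63% of Control cells. In cells without Dusp6 the ratios between the libraries were 1.21 (0.86 to 1.57) for Bcl6b, 1.42 (1.25 to 1.59) for Lhx1, 1.69 (1.40 to 1.99) for Egr2 and 2.75 (2.08 to 3.47) for Egr3. Within the FGF9-treated library the cells with Dusp6 exceeded those without by 0.61 (0.31 to 0.91) for Bcl6b and 0.64 (0.24 to 1.05) for Egr3, whereas Cxcr4 had 0.14 (-0.29 to 0.57).

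Neurog3 marks progenitor and Kit differentiating spermatogonia. In cells with Neurog3 (728 FGF9-treated, 1704 Control) the 6 genes were again higher in FGF9-treated cells (against 3.66% of 14884 genes), with ratios of 1.85 for Bcl6b, 1.68 for Lhx1, 1.97 for Cxcr4, 2.07 for Egr2, 3.25 for Egr3 and 1.86 for Tspan8. Eomes was not among them, and in cells with Neurog3 its ratio between the libraries was 0.11 (-0.42 to 0.62). Within the FGF9-treated library Eomes was lower in cells with Neurog3 (3.70 CPM) than in cells without (7.34 CPM), a ratio of -0.99 (-1.46 to -0.55). In the same contrast within the Control library Eomes (-0.39, -0.76 to -0.03), Cxcr4 (-0.88, -1.80 to -0.02) and Lhx1 (-0.27, -0.52 to -0.02) were lower. Pou3f1 was slightly higher there (0.08, 0.02 to 0.14). In cells with Kit, which were 172 FGF9-treated and 636 Control cells, Lhx1 had 79 UMIs (23.6 CPM) in FGF9-treated and 103 UMIs (8.61 CPM) in Control cells, a ratio of 1.46 (1.01 to 1.89). Egr3 had 4 UMIs in FGF9-treated and 1 UMI in Control cells with Kit, too few to compare the libraries. Within the FGF9-treated library Egr3 was lower in cells with Kit (4 UMIs) than in cells without (222 UMIs), a ratio of -1.54 (-3.43 to -0.17).

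Cycling cells differed in number, Mki67 being found in 37.8% of FGF9-treated and 20.0% of Control cells. Within the FGF9-treated library, cells with Mki67 had more Egr3 (1.21, 0.80 to 1.63, the only call of 8, against 2.31% of 15745 genes), Bcl6b (0.73, 0.43 to 1.02), Lhx1 (0.67), Cxcr4 (0.67), Tspan8 (0.63) and Eomes (0.49) than cells without, while Egr2 was level (0.04, -0.19 to 0.28). In cells without a UMI of Mki67 or Top2a (1257 FGF9-treated and 1081 Control cells) the ratios between the libraries were 1.75 (0.95 to 2.62) for Bcl6b, 1.39 (1.08 to 1.72) for Lhx1, 1.32 (0.39 to 2.33) for Cxcr4, 1.44 (0.95 to 1.95) for Egr2, 2.10 (0.89 to 3.53) for Egr3 and 1.52 (0.78 to 2.31) for Tspan8, and all 6 were called (against 3.08% of all genes). The estimates of Lhx1, Cxcr4, Egr2, Egr3 and Tspan8 were smaller in these cells than over all germ cells, that of Egr3 by more than 1.5 times as a fold, and that of Bcl6b was larger. The part of cycling cells in the ratios was not tested further.

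At least 1 of the 8 genes other than Pou3f1 was found in 2129 FGF9-treated cells (46.9%) and 1025 Control cells (24.7%). In FGF9-treated cells 2 of them were found in 12.1%, 3 in 2.93%, 4 in 0.639% and 5 or more in 0.132% of cells, and in Control cells 2 in 3.18% and 3 in 0.433%, with 0 cells at 4 or more. Pairs were set beside the number of cells expected if each gene fell on cells by their depth alone. In the FGF9-treated library Bcl6b and Tspan8 were found together in 50 cells against 28.5 expected (1.75-fold, 1.30 to 2.31), Lhx1 and Egr3 in 89 against 54.7 (1.63-fold), and Bcl6b and Lhx1 in 126 against 99.0 (1.27-fold, 1.06 to 1.52). Bcl6b and Eomes, with 29 cells against 33.4, did not exceed depth. Of all 28 pairs in this library 9 had an interval above 1 and 19 an interval that held 1, with 4 ratios below 1. Pairs of other genes were not counted, so these numbers cannot be called particular to the members. In the Control library the intervals of all 10 pairs counted held 1. Only members with at least 100 UMIs in a library were paired, and some Control expectations were low, as for Bcl6b and Egr2 (6.73 cells). These are descriptions of sparse counts in 1 library each.

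**Figure D5:**
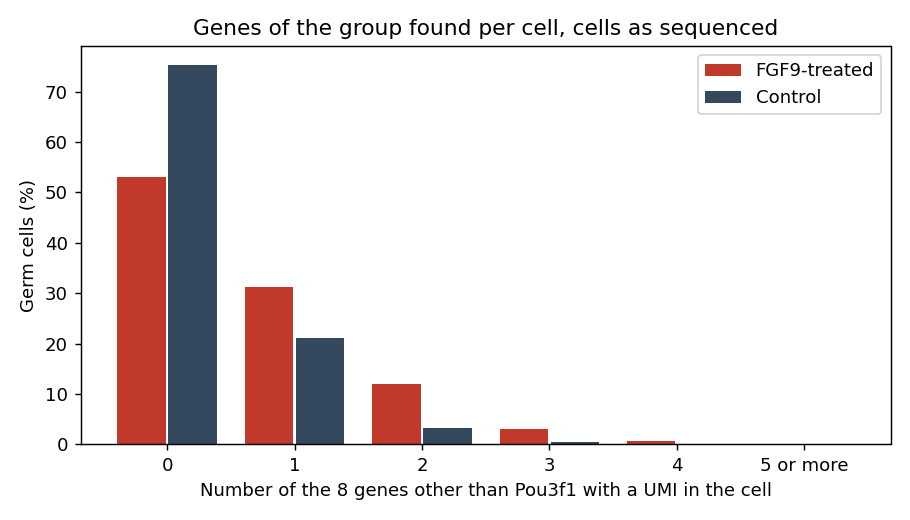
Percentage of germ cells of the FGF9-treated (4537) and Control (4157) libraries with UMIs of 0 to 5 or more of the 8 genes other than Pou3f1, in cells as sequenced. No UMI of the 8 was found in 53.1% of FGF9-treated and 75.3% of Control cells.

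The rest of the GDNF pathway gave a mixed picture. Of 26 tested receptor and transducer genes, 4 were higher and 1 lower in FGF9-treated cells, beside 4.66% of all genes higher and 4.27% lower. Gfra1 (1.83, 1.74 to 1.93), Ret (1.58, 1.51 to 1.65) and Ncam1, which encodes an alternative GDNF receptor (1.53, 1.20 to 1.87), were among those higher, and the adaptor gene Gab2 was lower (-1.15, -1.47 to -0.84). The median of the list was 0.02. Gdnf itself had 3 UMIs in FGF9-treated and 6 UMIs in Control germ cells, too few to test, and 17 and 7 UMIs in the feeder cells.

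Of 14 other self-renewal factors, 2 were higher and 0 lower (against 4.66% and 4.27% of all genes), with a median of 0.21. The list went both ways: 6 of its intervals lay above 0 (against 26.6% of all genes) and 4 below. Etv4 (4.45, 4.13 to 4.79) and Etv5 (4.02, 3.76 to 4.29), the ETS factors that answer FGF and GDNF, had larger ratios than any of the 8 tested genes. The cyclin gene Ccnd2 (0.80) and Nanos2, an RNA-binding repressor of differentiation (0.65), had intervals above 0 and were not called.

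Of 19 tested relatives and partners of the members, 2 were higher and 2 lower (against the same 4.66% and 4.27% of all genes), with a median of 0.06. Mixl1 (1.45, 0.54 to 2.45, from 38 and 14 UMIs) and Gsc (-1.52, -2.72 to -0.44, from 10 and 29 UMIs), which accompany T and Eomes in the embryo, were higher and lower. Ackr3, the other receptor for CXCL12, was higher (1.26, 0.38 to 2.20, from 38 and 16 UMIs). Cxcl12, the ligand of CXCR4, was lower (-1.23, -1.54 to -0.93), but its level was 1.91 CPM in FGF9-treated and 4.48 CPM in Control germ cells against 90.7 and 159 CPM in feeder cells; the part of feeder RNA in this difference was not tested.

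Egr2 and Egr3 belong to the genes that can also answer the handling of cells, so immediate early genes were counted. Of 10 tested, 1 was higher, Fos (1.23, 1.16 to 1.30), and 1 lower, Jun (-1.01, -1.09 to -0.94), against 4.66% and 4.27% of all genes. Ier2 had 0.67 and Btg2 -0.63, and the median was 0.28. Of the 10 intervals, 7 lay above 0 (against 26.6% of all genes) and 2 below. The summed level of the 10 genes was 415 CPM in FGF9-treated and 412 CPM in Control germ cells, against 3028 and 2587 CPM in feeder cells. These near-equal germ cell sums hold genes that went opposite ways. Fos had 81.2 CPM in FGF9-treated and 34.7 CPM in Control germ cells, and Btg2 102 and 158 CPM. The part of cell dissociation in the Egr ratios was not tested.

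Over the 8 groups made by the 4 receptor classes in the 2 libraries, the genes most like each member were sought by Pearson correlation of log2(CPM + 1). Those closest to Bcl6b were Tex13b, Dnajc9 and Higd1a (r of 0.993 to 0.995), those closest to Egr2 were Hdgfl3, Tmem114 and Kitl (0.993 to 0.997), and those closest to Egr3 were Amot, Pphln1 and Myl7 (0.986 to 0.993). Tmem114, with a ratio between the libraries of 2.10, and Myl7, with 1.95, were the only ones of the 24 genes so named with a ratio near or above that of Tspan8. The groups share 2 libraries, and among so many genes the closest fit is high by selection, so these values describe likeness over 8 points and carry no test.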

How the data were processed

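The authors deposited raw counts of UMIs per gene and barcode, made with Cell Ranger (version 3.1.0 in the matrix header) against mm10; their cell filter and Seurat 3.1 steps came later. Antibody tag counts were not used here. Doublets were not removed, and an alternative left out barcodes above 2.5 times the median UMIs. UMIs were summed over cells and divided by the sum of all genes to give CPM. Ratios have exact conditional binomial intervals, levels exact Poisson intervals and shares Clopper-Pearson intervals, at 95%. Differences of ratios add the counting variances. Levels at 0 are limited by 3 counts. PCR is collapsed by UMIs; intervals do not cover variation between cultures. The calls were tested on simulated data. Alternatives changed the scaling (edgeR TMM, median of ratios), cell filters, depth, minimum UMIs and receptor definition. Genes named are the 9 members, Ret, Gfra1 and Etv5, up to 4 genes per list with the largest ratios (1 such gene is not reported here), and the 3 genes most like each member; other genes named (Dusp6, Neurog3, Kit, Mki67, Top2a, Egr1, Egr4, Gab2, Gdnf and markers) define classes or were named after their values were seen. The members and lists were chosen with earlier results of these data known. Computation used scipy 1.17.1 and numpy 2.4.6 under Python 3.11.15, and edgeR 4.0.16 under R 4.3.3. Sequences are from RefSeq tables and the study's primer list.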

Additional observations from a re-analysis of the deposited data

How the results depend on the processing

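Over all germ cells 6 or 7 genes were called higher under all 12 alternatives, against 3.08% to 5.76% of all genes. There were 7 of 9 tested when no minimum above 1 UMI was set, which added T, and otherwise 6 of 8. Neither TMM nor median-of-ratios scaling changed a count. In cells with Ret and Gfra1 the 5 calls fell to 1 of 6 tested in cells without Mki67 and Top2a (against 1.63% of all genes). At a minimum of 2 UMIs of each receptor they fell to 0 of 8 (against 1.8%). They fell to 0 of 5 in cells thinned to 5000 UMIs (1.53%) and to 0 of 7 with receptors sought among 5000 drawn UMIs (1.69%). Each of these choices left fewer cells. In cells with neither, the 6 calls fell to 2 of 4 tested without Mki67 and Top2a (against 2.06% of all genes). At a minimum of 100 UMIs they fell to 3 of 5 (against 1.85%). Genes under the minimum of UMIs were not tested, so part of these calls were lost without a comparison. For cells with both over neither, the 1 call in the FGF9-treated library was Egr3. It fell to 0 of 8 with receptors sought among drawn UMIs (against 0.869% of all genes). The call was Egr2 instead in thinned cells (1 of 8, 0.775%) and Tspan8 without Mki67 and Top2a (1 of 7, 1.32%). The 2 calls in the Control library became 1 of 4 without Mki67 and Top2a (2.34%) and at a minimum of 100 UMIs (1.21%). In thinned cells they became 1 of 5 (2.14%). They became 4 of 7 at 2 UMIs of each receptor (3.67%) and 4 of 8 among drawn UMIs (2.46%). Why the stricter receptor choices gave other counts was not tested. Over all germ cells no gene changed direction under 10 alternatives each, and Bcl6b stayed between 1.48 and 1.75 and Lhx1 between 1.39 and 1.60. Egr3 ranged from 2.10 (without Mki67 and Top2a) to 3.17, Cxcr4 from 1.32 to 1.80, Egr2 from 1.44 to 1.76 and Tspan8 from 1.52 to 2.21. No paired analysis was possible because each treatment has 1 library, and for the same reason no replicate could be left out. Depth limits T in all cells, and Cxcr4 and Egr3 in the Control receptor classes.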
